A study of Mus musculus with 16 samples.

Results

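The 10 genes described here encode proteins that store, import, export or sense iron. They were taken from the count table by gene symbol, with no measured value in the rule. Earlier results of these data were known when the genes were chosen. The 10 genes were Fth1, Ftl1, Tfrc, Slc40a1, Slc11a1, Slc11a2, Hmox1, Aco1, Ireb2 and Ncoa4. All 10 were listed among the 55385 genes counted, and all 10 were among the 14513 genes that passed the filter on low counts. RNA had been sequenced from CD11b+ cells, which are mostly microglia, the resident macrophages of the brain. The cells were sorted with magnetic beads from brains of female mice of 20 weeks after the meninges and choroid plexus had been taken off. There were 16 libraries, 4 of each of 4 genotypes. WT mice carried intact Card9 and no 5xFAD transgenes. Card9-/- mice lacked functional Card9, a gene for an adaptor of innate immune receptors, in all tissues and carried no transgenes. 5xFAD mice carried intact Card9 and human transgenes with mutations of familial Alzheimer's disease, which a Thy1 promoter drives in neurons and not in microglia. Card9-/-5xFAD mice had both alterations. All 4 groups came from crosses that included C57BL/6J mice. The labels do not tie libraries to litters, and p-values measure the spread between the libraries labelled as replicates.

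Cells take up transferrin-bound iron through the transferrin receptor (Tfrc) and move it across membranes with divalent metal transporters such as Slc11a2 and, in the phagosomes of macrophages, Slc11a1. Iron is kept in ferritin, a shell of heavy (Fth1) and light (Ftl1) chains, which Ncoa4 delivers to the lysosome when iron is needed. It leaves the cell through ferroportin (Slc40a1). Hmox1 frees iron from heme. The iron regulatory proteins made from Aco1 and Ireb2 bind a hairpin called the iron-responsive element (IRE) in several of these mRNAs when iron is scarce, and thereby block translation from the 5′ UTR or protect the mRNA from decay at the 3′ UTR. Because control at a 5′ IRE acts on translation, the RNA counts given here do not measure ferritin or ferroportin protein.

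The 2 ferritin chains, the exporter and the transferrin receptor held an IRE-like sequence in a UTR of GENCODE M21, which annotates GRCm38 (mm10). The search asked for a C, a stem of 5 paired bases with G-T pairs allowed, and the loop CAGTGN, on the strand of the mRNA. Capitals mark the loop below, and the 5 bases on either side of it form the upper stem, so that the shared element and its differences between genes can be read. Of 20900 protein-coding genes with a 5′ UTR, 0.148% held a match there, and of 21022 with a 3′ UTR, 0.614% did.
Fth1, 5′ UTR, chr19:9982732-9982760, plus strand: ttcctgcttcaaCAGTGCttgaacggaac
Ftl1, 5′ UTR, chr7:45459779-45459807, minus strand: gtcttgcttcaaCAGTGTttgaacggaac
Slc40a1, 5′ UTR, chr1:45925465-45925493, minus strand: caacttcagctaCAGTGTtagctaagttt
Tfrc, 3′ UTR, chr16:32631219-32631247, plus strand: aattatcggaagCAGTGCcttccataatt
Tfrc, 3′ UTR, chr16:32631598-32631626, plus strand: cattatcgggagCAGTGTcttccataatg
Tfrc, 3′ UTR, chr16:32631663-32631691, plus strand: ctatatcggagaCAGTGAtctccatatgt
Tfrc, 3′ UTR, chr16:32631710-32631738, plus strand: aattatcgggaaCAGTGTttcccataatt
The ferritin sites shared the stem on both sides of the loop, and the 4 sites of Tfrc lay within the same 3′ UTR. No match was found in the annotated UTRs of the other 6 genes, which says only that these letters do not occur there in this form. The ferroportin site was annotated in 1 of its 4 coding transcripts and the Fth1 site in 4 of 5, and gene counts do not tell the transcripts apart.

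The authors deposited whole-number read counts per gene. Between 2970148 and 19333325 reads per library were counted on genes (median 7944265), with ranges of 5346747 to 11206884 in WT, 3229322 to 19333325 in Card9-/-, 6355823 to 8032763 in 5xFAD and 2970148 to 10408110 in Card9-/-5xFAD. Levels are given in counts per 1000000 counted reads (CPM), on library sizes normalized by the trimmed mean of M values. All 12 microglia markers were detected in every genotype, with a summed level of 18319 to 38565 CPM per library. The lowest sums were those of WT replicate 1 (18319), 5xFAD replicate 1 (18426), Card9-/-5xFAD replicate 4 (20671) and Card9-/- replicate 4 (21101 CPM). All other libraries had at least 23275 CPM. The libraries labelled Card9-/- still held Card9 reads, at 16.7 to 34.8 CPM against 13.6 to 51.3 CPM in WT, so the genotypes rest on the labels. Libraries differed in how expression depended on gene length. The length slope, the change in log2 CPM per unit of log2 summed exon length, ran from 0.229 in 5xFAD replicate 1 to 0.765 in Card9-/- replicate 2. Its mean was 0.408 over the 8 libraries with transgenes and 0.535 over the 8 without, a difference of -0.127 (exact two-sided permutation test, p = 0.119 over 12870 assignments). Of all genes tested, 32.1% had a Pearson r of 0.5 or more with this slope over the 16 libraries and 23.5% had -0.5 or less, so the main results are also given with the slope as a covariate. WT replicate 1, Card9-/- replicate 4 and Card9-/-5xFAD replicate 4, which were among the libraries of flat slope, held 3584, 6259 and 5956 CPM of 6 neutrophil markers, against 485 to 2189 CPM in the others. The libraries of lowest microglia marker sum were these and 5xFAD replicate 1, which had the flattest slope of all. The part of cell content in the slope was not tested. Although the choroid plexus had been taken off, 6 of its markers summed to 3.16 to 3008 CPM per library, with the highest values in Card9-/- replicate 4 and WT replicate 1 (1730 CPM). Their median log2 fold change was -1.88 in Card9-/-5xFAD against Card9-/- and -2.27 in Card9-/-5xFAD against 5xFAD. It was 0.16 in 5xFAD against WT and -0.69 in Card9-/- against WT. In each of these comparisons 0 of 6 were called, against 1.97%, 0%, 2.09% and 0% of all genes in the same order. The part of these markers in the results was not tested.

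On a scale per kb of exon, ferritin mRNA was far above the others. This scale compares genes only roughly, since the length slope differed between libraries. Fth1 had a mean of 1246 CPM per kb over all libraries and Ftl1 537. Slc11a1 followed at 93.7, Hmox1 at 53.6 and Slc40a1 at 31.2 CPM per kb. Ncoa4 (9.72), Aco1 (7.35) and Slc11a2 (4.45) came next, and Ireb2 (2.33) and Tfrc (1.56 CPM per kb) were the lowest. In plain CPM, Fth1 (mean 4323) and Ftl1 (719) were also the highest. Slc40a1 (281) was above Hmox1 (93.9 CPM) there, so the order depends on the scale. The summed exons of all annotated transcripts set the length, 3.47 kb for Fth1, so a gene with long and rarely used exons is understated. The spread among libraries of a genotype was wide for several neighbours in the order per kb. The coefficient of variation of Ncoa4 CPM, for example, ran from 52.7% to 80.7% within genotypes, and that of Ftl1 from 12.9% to 34%.

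**Figure D1:**
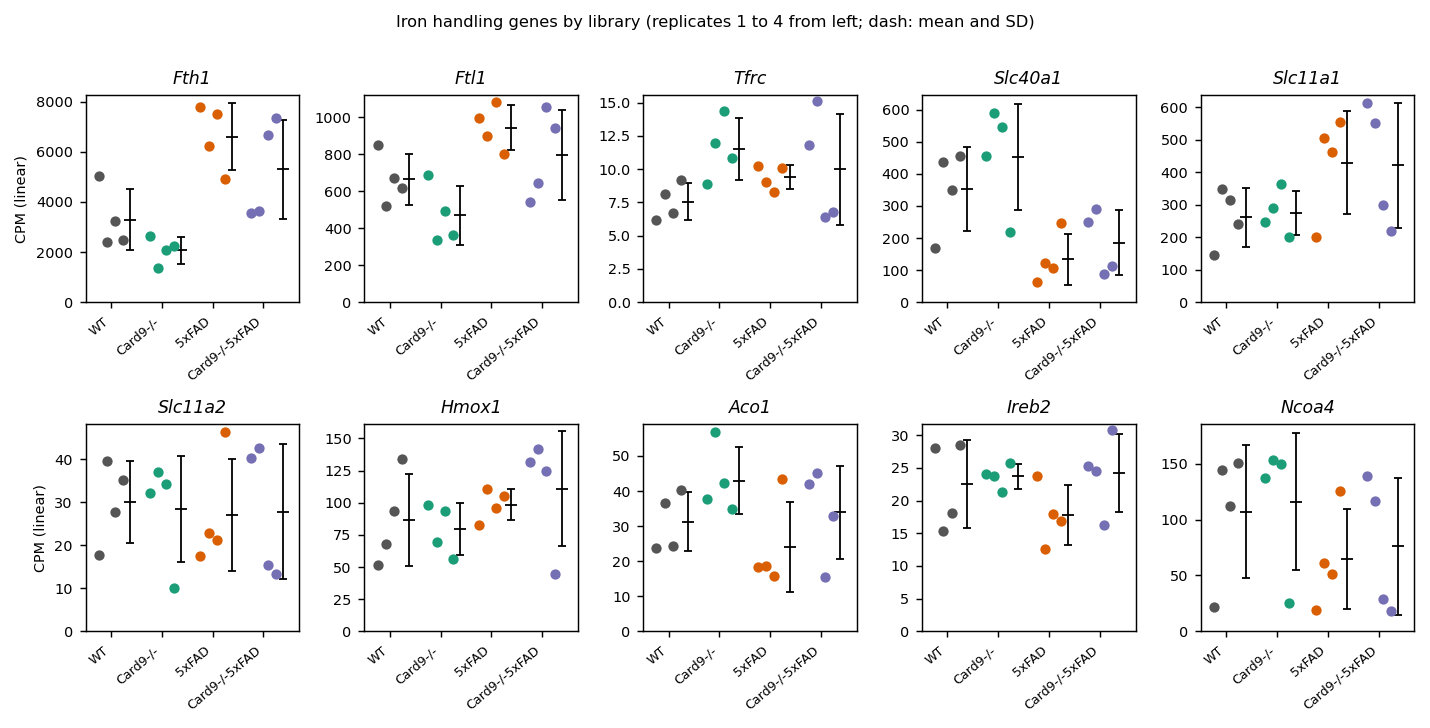
CPM of the 10 iron handling genes (linear vertical axes, one scale per gene) in each library of the 4 genotypes, with the mean and SD of 4 libraries beside the points. Fth1 was at 4906 to 7782 CPM in 5xFAD and at 2415 to 5041 CPM in WT, and Slc40a1 was at 62.8 to 247 CPM in 5xFAD and at 170 to 456 CPM in WT.

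Storage genes rose with the transgenes. Averaged over both Card9 genotypes, Fth1 was 2.26-fold and Ftl1 1.55-fold higher in libraries with transgenes, while the exporter Slc40a1 was 2.53-fold lower. These were the 3 of 10 genes called at a false discovery rate (FDR) under 0.1 in this average, against 11.3% of all genes tested. Within one Card9 genotype the smaller design called fewer. In 5xFAD against WT 0 of 10 were called by edgeR, against 2.09% of all genes, with 2 of 10 (and 1573 of 14513) at an unadjusted p under 0.05 and 1 called by DESeq2 on all libraries (Fth1). In Card9-/-5xFAD against Card9-/- 1 of 10 was called, against 1.97% of all genes, and DESeq2 on all libraries called 2 (Fth1 and Ftl1). The share of all genes called by DESeq2 is not given here, so its counts are not read as results about these genes. Libraries with the same replicate number deviated together within each Card9 genotype, so the number was also used as a block there. This fit was chosen after the data were seen. Only 5 of 16 libraries correlated best with a library of their own number, so the pairing that the block assumes is not established. With this block 3 of 10 passed in 5xFAD against WT (Fth1, Slc40a1 and Slc11a1), against 16% of all genes, 3 in Card9-/-5xFAD against Card9-/- (Fth1, Ftl1 and Slc40a1), against 20.4%, and 6 in the average, against 41.9%. With the block and the length slope together, 0 of 10 passed in either comparison, against 2.42% and 2.94% of all genes, and 1 in the average (Slc11a1), against 5.06%. The median log2 fold change over the 10 genes was -0.01 in the average effect, and that over all genes was -0.15. The average uses the libraries of both comparisons and is no further evidence beside them.

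Fth1 (chr19:9980598-9985098), whose product is the chain of ferritin that oxidizes iron, was at 5041, 2415, 3259 and 2480 CPM in WT replicates 1 to 4. In Card9-/- it was at 2637, 1352, 2086 and 2240 CPM. The 5xFAD libraries were at 7782, 6227, 7521 and 4906 CPM, and the Card9-/-5xFAD libraries at 3577, 3658, 6659 and 7332 CPM. Every Card9-/-5xFAD library was thus above every Card9-/- library, and Fth1 was the only one of the 10 genes without overlap in that comparison, against 7.01% of all genes. In 5xFAD, the lowest library (4906) lay just below the highest of WT (5041), and 0 of 10 genes were free of overlap there, against 8.04% of all genes. The log2 fold change was 1.35 ± 0.34 (SE; 95% CI 0.62 to 2.08) in Card9-/-5xFAD against Card9-/- (edgeR FDR = 0.0763). That call was lost without WT replicate 3, without replicate 1, 2 or 3 of Card9-/-, without replicate 2 or 3 of 5xFAD, and without replicate 3 or 4 of Card9-/-5xFAD, with values from 1.17 to 1.49 and FDRs from 0.111 to 0.265. It was also lost in edgeR on only the 2 groups (1.36, FDR = 0.29) and with the replicate block and the length slope together (1.02 ± 0.33, FDR = 0.163). In 5xFAD against WT it was 1.00 ± 0.34 (95% CI 0.28 to 1.73), which did not pass (FDR = 0.235), and it passed without WT replicate 1 (1.28, FDR = 0.094) and with the replicate block (1.05 ± 0.24, FDR = 0.0192). The difference between the 2 changes was 0.35 ± 0.48 (95% CI -0.67 to 1.36). Averaged, the change was 1.18 ± 0.24 (FDR = 0.00797), and it stayed between 1.09 and 1.41 when any 1 library was left out, with the FDR between 0.00282 and 0.0253. It did not pass with the block and the length slope together (0.89 ± 0.29, FDR = 0.132).

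Ftl1 (chr7:45457944-45459884), for the chain that aids mineral formation in the shell, followed Fth1 from library to library (Pearson r of log2 CPM 0.93 over 16 libraries and 0.86 after removal of the genotype means, a description without a test). Its CPM were 851, 521, 673 and 616 in WT and 688, 339, 495 and 362 in Card9-/-. The 5xFAD libraries had 996, 900, 1082 and 800 CPM, whereas Card9-/-5xFAD had 543, 644, 1058 and 941. WT replicate 1 exceeded the lowest 5xFAD library, so the ranges overlapped, and they overlapped as well in the Card9-/- background. The average change of Ftl1 was 0.63 ± 0.21 on the log2 scale (edgeR FDR = 0.0891). It was 0.51 ± 0.30 in 5xFAD against WT (FDR = 0.578) and 0.76 ± 0.30 in Card9-/-5xFAD against Card9-/- (FDR = 0.301). The average call was lost without replicate 2, 3 or 4 of WT, 2 or 3 of Card9-/-, 1, 2 or 3 of 5xFAD, or 3 of Card9-/-5xFAD (lowest value 0.55, highest FDR 0.183), and with no filter on low counts (0.63, FDR = 0.261). With the replicate block Ftl1 passed in Card9-/-5xFAD against Card9-/- (0.77 ± 0.26, FDR = 0.0653), and with the block and the length slope together the average did not pass (0.36 ± 0.31, FDR = 0.557). Ftl1 also has 8 near-identical genes, most of them pseudogenes, which held 7.89% to 37.7% of the combined counts per library. With their counts added, the average change was 0.78 ± 0.22 (FDR = 0.0463).

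The balance of the 2 ferritin mRNAs also differed in value between groups. Fth1 CPM over Ftl1 CPM was 4.02 to 5.93 in WT (median 4.74) and 6.13 to 7.81 in 5xFAD (median 6.93), with no overlap between these genotypes. It was 3.83 to 6.18 in Card9-/- (median 4.1) and 5.68 to 7.79 in Card9-/-5xFAD (median 6.44). The ratio was chosen after the levels were seen and was not tested. Of single genes, 8.04% were free of overlap in 5xFAD against WT, and no such share was computed for ratios. It leaves out the genes similar to Ftl1, which held 7.89% to 37.7% of the combined counts per library. With counts of similar genes added, the log2 fold change of Ftl1 in 5xFAD against WT was 0.72 ± 0.31, instead of 0.51 ± 0.30. That of Fth1 stayed at 1.00 ± 0.34. The part of these genes in the ratio was not tested.

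Slc40a1 (chr1:45908068-45926523), the only known iron exporter of mammalian cells, went the other way. It was at 170, 438, 349 and 456 CPM in WT and at 456, 588, 546 and 218 CPM in Card9-/-. In 5xFAD it was at 62.8, 121, 106 and 247 CPM, and in Card9-/-5xFAD at 251, 291, 87.6 and 112 CPM. WT replicate 1 lay below the highest 5xFAD library and Card9-/- replicate 4 below the highest 2 of Card9-/-5xFAD, and the other libraries without transgenes were above all those with them. The average log2 fold change was -1.34 ± 0.35 (95% CI -2.08 to -0.60, edgeR FDR = 0.0307), and between -1.49 and -1.22 when any 1 library was left out, with the FDR between 0.0134 and 0.072. In 5xFAD against WT it was -1.40 ± 0.49 (FDR = 0.257) and in Card9-/-5xFAD against Card9-/- -1.28 ± 0.49 (FDR = 0.273). Both passed with the replicate block (-1.48 ± 0.28, FDR = 0.00734, and -1.35 ± 0.28, FDR = 0.00971). With the block and the length slope together neither passed, nor did the average (-0.66 ± 0.24, FDR = 0.166). Levels of Slc40a1 and Fth1 ran in opposite directions over the libraries (Pearson r -0.92 over 16 and -0.83 after removal of the genotype means), and both followed the length slope. Markers of border-associated macrophages, the macrophages of the meninges, perivascular spaces and choroid plexus, fell with the transgenes. In the average 4 of the 7 markers were called, against 11.3% of all genes. In 5xFAD against WT 3 were, against 2.09%, and in Card9-/-5xFAD against Card9-/- 1 was, against 1.97%. With the replicate block the counts were 6, 4 and 4 in the same order, against 41.9%, 16% and 20.4% of all genes. The summed level of the 7 markers was 1072 to 1711 CPM in WT, 975 to 1919 in Card9-/-, 589 to 850 in 5xFAD and 402 to 1821 in Card9-/-5xFAD. The 1821 CPM were those of Card9-/-5xFAD replicate 4, and none of the 7 was at 0 in any genotype. Fewer cells of a type and less RNA per cell cannot be told apart in bulk RNA, and the part of these cells in the change of Slc40a1 was not tested.

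**Figure D2:**
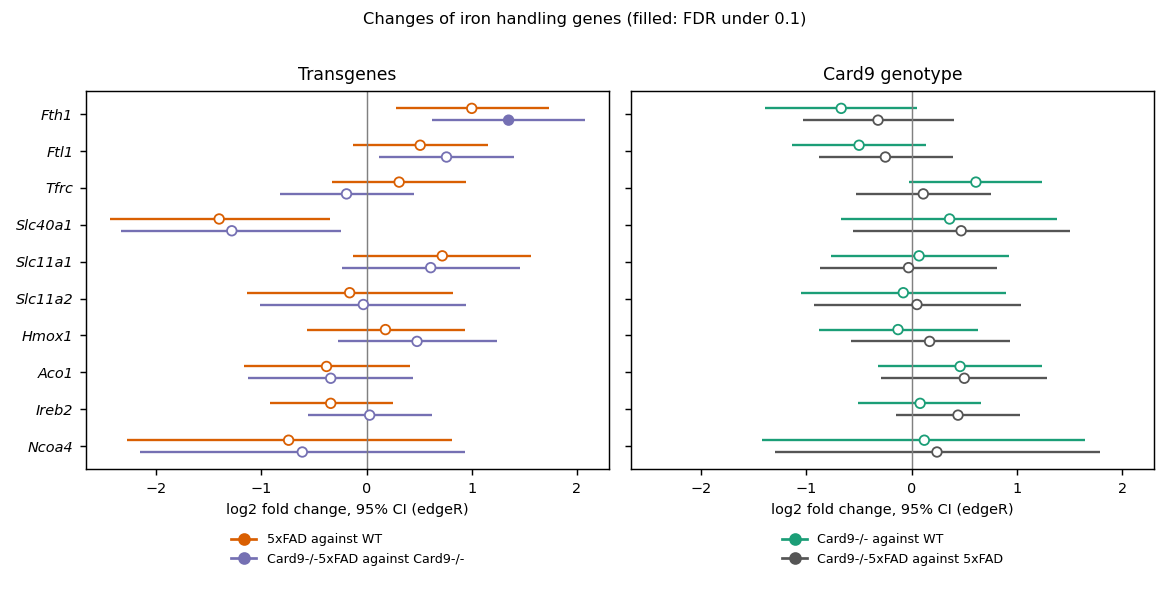
Log2 fold changes (horizontal axis) with 95% CIs of the 10 genes from edgeR, for the transgenes in each Card9 genotype (left) and for Card9 deletion without and with the transgenes (right). Filled points passed an FDR under 0.1, which only Fth1 in Card9-/-5xFAD against Card9-/- did (1.35), and intervals of Card9 deletion all include 0.

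Uptake genes gave a mixed picture. Slc11a1 (chr1:74375195-74386062), also known as Nramp1, moves divalent metals out of the phagosome and is linked to resistance to intracellular microbes. It was at 145, 347, 314 and 240 CPM in WT and at 248, 289, 363 and 202 CPM in Card9-/-. The 5xFAD libraries were at 200, 505, 461 and 554 CPM, whereas Card9-/-5xFAD was at 614, 552, 300 and 218 CPM. In 5xFAD, 3 of 4 libraries were above all of WT, and the fourth, replicate 1, had the flattest length slope of all. The average log2 fold change of 0.67 ± 0.28 did not pass (edgeR FDR = 0.17). It passed with the length slope as a covariate (0.95 ± 0.22, FDR = 0.00881), with 1 surrogate variable (0.83, FDR = 0.00532), with DESeq2 on all libraries (0.73, FDR = 0.074), without Card9-/-5xFAD replicate 4 (0.79, FDR = 0.0805), and without the library of flattest slope in each genotype (0.71, FDR = 0.0734). It also passed with the replicate block (0.61 ± 0.18, FDR = 0.0211) and with the block and the slope together (1.00 ± 0.29, FDR = 0.0943). In 5xFAD against WT Slc11a1 passed with the block (0.69 ± 0.25, FDR = 0.0979).

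Slc11a2, or Dmt1, the transporter that takes iron out of the endosome, was at 17.8 to 39.6 CPM in WT, 10.1 to 36.9 in Card9-/-, 17.4 to 46.3 in 5xFAD and 13.2 to 42.6 CPM in Card9-/-5xFAD. Its average change was -0.09 ± 0.33, and with the length slope as a covariate it was 0.44 ± 0.15 and passed (edgeR FDR = 0.0567), so that its direction depended on the covariate. It was 0.62 ± 0.25 with the slope and the replicate block together and did not pass (FDR = 0.21). The exons of Slc11a2 overlap those of Gm5475 on the opposite strand, which had 3 to 46 counts per library, and without a stated strand setting reads of this pair cannot be told apart. Tfrc was the gene with the fewest reads here, 17 to 290 per library. It was at 6.16 to 9.2 CPM in WT, 8.89 to 14.4 in Card9-/-, 8.27 to 10.2 in 5xFAD and 6.43 to 15.1 CPM in Card9-/-5xFAD. Its average transgene change was 0.06 ± 0.21 (95% CI -0.39 to 0.51).

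Hmox1, the inducible heme oxygenase, was at 51.9 to 134 CPM in WT, 55.9 to 98.3 in Card9-/-, 82.7 to 111 in 5xFAD and 44.9 to 142 CPM in Card9-/-5xFAD. The average change was 0.33 ± 0.25 (edgeR FDR = 0.46), and 0.60 ± 0.23 with the length slope as a covariate (FDR = 0.0757). It was 0.02 ± 0.28 with the slope and the replicate block together. Markers of red blood cells, a source of heme, summed to at most 133 CPM in any library.

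The genes for both iron regulatory proteins and for the ferritin receptor gave no call without the replicate block. Aco1, whose product is an aconitase when it holds an iron-sulfur cluster and binds IREs when it does not, was at 23.8 to 40.3 CPM in WT, 35 to 56.8 in Card9-/-, 15.8 to 43.3 in 5xFAD and 15.6 to 45.2 CPM in Card9-/-5xFAD. Its average change was -0.36 ± 0.26 (edgeR FDR = 0.441), and it passed with the replicate block (-0.44 ± 0.18, FDR = 0.0796). It was -0.08 with the length slope as a covariate (FDR = 0.789), and 0.26 ± 0.22 with both (FDR = 0.545). Ireb2, for the second IRE-binding protein, which is degraded when iron is plentiful, was at 12.6 to 28.5 CPM in the 2 genotypes with intact Card9 and at 16.3 to 30.8 CPM in the 2 without. The average change was -0.15 ± 0.20 (95% CI -0.57 to 0.26). Ncoa4 (chr14:32159865-32179855), the receptor that takes ferritin to the lysosome, was at 22.2, 144, 112 and 151 CPM in WT and at 137, 153, 150 and 24.9 CPM in Card9-/-. It was at 19.3, 61.1, 51.4 and 126 CPM in 5xFAD and at 139, 117, 29.2 and 18 CPM in Card9-/-5xFAD. Every genotype thus held libraries at 18 to 29.2 CPM beside libraries at 112 to 153 CPM. The lowest Ncoa4 value of each genotype was in its library of lowest microglia marker sum, and the part of cell content was not tested. The average change of -0.67 ± 0.52 (95% CI -1.77 to 0.42) turned to 0.19 ± 0.24 with the length slope as a covariate. With the replicate block it was -0.75 ± 0.24 and passed (edgeR FDR = 0.03), and with the block and the slope together it was 0.25 ± 0.27 (FDR = 0.66). A copy of Ncoa4 with 99.9% identity over 1878 bases, Gm6768, held 4.26% to 15.1% of the combined counts.

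**Figure D3:**
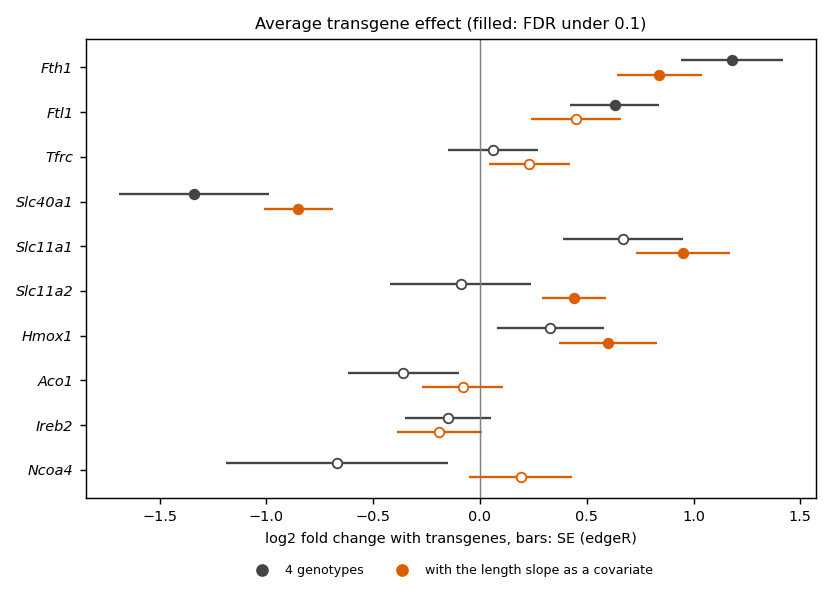
Log2 fold change of the 10 genes with the transgenes, averaged over both Card9 genotypes (horizontal axis, bars are SE, edgeR), from the 4 genotypes alone and with the length slope of each library as a covariate. Filled points passed an FDR under 0.1. Fth1 (1.18 and 0.84) and Slc40a1 (-1.34 and -0.85) passed in both, Ftl1 only without the covariate, and Slc11a1, Slc11a2 and Hmox1 only with it.

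The length slope moved with most of the 10 genes, as it did with many other genes. Pearson r was 0.5 or more for 5 of 10, against 32.1% of all genes tested. It was -0.5 or less for 2 of 10, against 23.5%. Levels of Ncoa4 (Pearson r 0.90), Slc40a1 (0.89), Slc11a2 (0.83) and Aco1 (0.83) were high where the slope was steep, as was Tfrc (0.54), and Fth1 (-0.78) and Ftl1 (-0.64) were low there. Slc11a1 (0.34), Hmox1 (0.35) and Ireb2 (0.14) lay between these. After removal of the genotype means r was 0.93 for Ncoa4, 0.94 for Slc40a1, 0.96 for Slc11a2 and -0.81 for Fth1. These are descriptions over 16 libraries that share the slope, and the part of the slope in the differences was not tested beyond the covariate. With the slope as a covariate the average change was 0.84 ± 0.20 for Fth1 (edgeR FDR = 0.00938) and -0.85 ± 0.16 for Slc40a1 (FDR = 0.00279), and 0.45 ± 0.21 for Ftl1 (FDR = 0.141). In that fit 5 of the 10 genes passed in the average, against 26.1% of all genes, 2 in 5xFAD against WT, against 7.39%, and 2 in Card9-/-5xFAD against Card9-/-, against 6.53%. Slc40a1 also passed in 5xFAD against WT (-0.89, FDR = 0.0325) and in Card9-/-5xFAD against Card9-/- (-0.80, FDR = 0.0608). Without the library of flattest slope in each genotype (WT replicate 1, Card9-/- replicate 4, 5xFAD replicate 1 and Card9-/-5xFAD replicate 3), the average change was 1.25 ± 0.26 for Fth1 (FDR = 0.00878), -1.32 ± 0.28 for Slc40a1 (FDR = 0.00959) and 0.57 ± 0.23 for Ftl1 (FDR = 0.103).

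**Figure D4:**
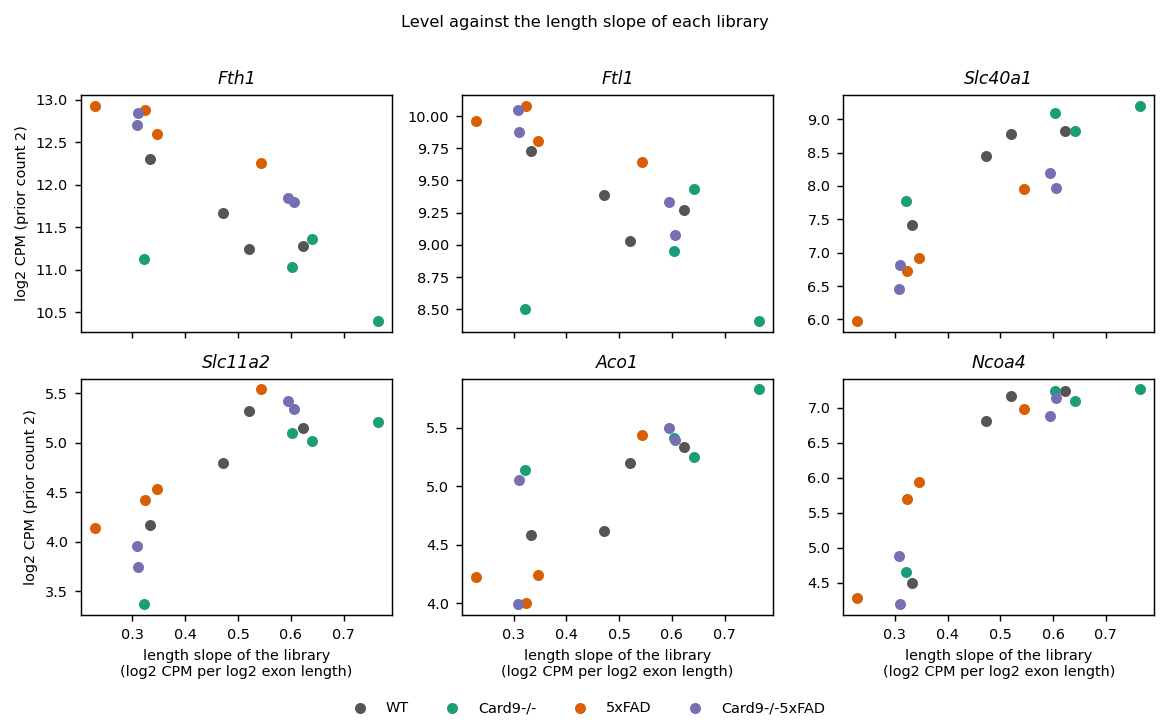
Log2 CPM (vertical axes, prior count 2) of 6 of the genes against the length slope of each library (horizontal axes), coloured by genotype. Fth1 and Ftl1 fall and Slc40a1, Slc11a2, Aco1 and Ncoa4 rise along the slope, with Pearson r from -0.78 (Fth1) to 0.90 (Ncoa4).

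Deletion of Card9 gave no call among the 10 genes. In Card9-/- against WT 0 of 10 passed, and 0% of all genes did. The counts at an unadjusted p under 0.05 were 0 of 10 and 597 of 14513, and DESeq2 on all libraries also called 0 of 10. No gene of the 10 was free of overlap, against 2.66% of all genes. Fth1 had a log2 fold change of -0.67 ± 0.34 (95% CI -1.39 to 0.05), and Ftl1 had -0.50 ± 0.30 (-1.14 to 0.14). Tfrc had 0.61 ± 0.30 (95% CI -0.03 to 1.24). These intervals include 0 and also changes of more than 2-fold. With the length slope as a covariate the values were -0.38 ± 0.26 for Fth1, -0.35 ± 0.27 for Ftl1 and 0.48 ± 0.26 for Tfrc, and 0 of 10 passed, against 0.0207% of all genes. In Card9-/-5xFAD against 5xFAD 0 of 10 passed in edgeR and in DESeq2 on all libraries, 0% of all genes did in edgeR, and 0 of 10 and 366 of 14513 had an unadjusted p under 0.05. Again none of the 10 was free of overlap, against 1.89% of all genes. Fth1 had -0.32 ± 0.34 (95% CI -1.03 to 0.40), and its Card9-/-5xFAD libraries held values both below all of 5xFAD (3577 and 3658 CPM) and within its range (6659 and 7332 CPM). Slc40a1 had 0.47 ± 0.49 (95% CI -0.56 to 1.50). Ireb2 had 0.44 ± 0.28 (-0.15 to 1.03). With the slope as a covariate these 3 changes were -0.14, 0.02 and 0.47. The difference between the transgene changes of the 2 Card9 genotypes passed for 0 of 10 genes and 0% of all genes, with 0 of 10 and 78 of 14513 at an unadjusted p under 0.05 and 0 of 10 called by DESeq2. Its intervals were wide, from -0.67 to 1.36 for Fth1 and from -1.34 to 1.56 for Slc40a1.

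A further 56 genes of iron metabolism were followed in 4 lists, of which 43 passed the filter. In the average transgene effect 11.3% of all genes passed and 3315 of 14513 had an unadjusted p under 0.05. Of 11 tested genes of iron transport and reduction 0 passed in either direction in that effect (2 with an unadjusted p under 0.05), with a median log2 fold change of -0.50 against -0.15 over all genes. With the replicate block, where 41.9% of all genes passed, 0 of these 11 were higher and 5 lower. The lowest p-values were those of Lcn2, a carrier of iron-binding siderophores (-0.81 ± 0.34, edgeR FDR = 0.171, and -1.07 with an FDR of 0.05 without Card9-/-5xFAD replicate 4, the library with 5956 CPM of neutrophil markers), and Steap4, a metalloreductase (-0.94 ± 0.44, FDR = 0.212, 1 to 39 counts per library). Lcn2 passed with the replicate block (-0.96 ± 0.25, FDR = 0.0132), and with the block and the length slope together it was 0.08 and Steap4 1.00. Trf, for transferrin, was at 705 to 2716 CPM over the 4 genotypes with an average change of 0.04 ± 0.34.

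Of 10 tested genes of heme handling, 0 rose and 2 fell in the average (median -0.07), against 11.3% of all genes called and a median of -0.15. Under the replicate block 1 rose and 3 fell, where 41.9% of all genes passed. Cd163, the receptor for hemoglobin bound to haptoglobin, was at 36.8 to 76.3 CPM in WT, 33.4 to 83.7 in Card9-/-, 11.4 to 34.6 in 5xFAD and 15.3 to 30.3 CPM in Card9-/-5xFAD. It had no overlap between groups in either background, against 8.04% of all genes in 5xFAD against WT and 7.01% in Card9-/-5xFAD against Card9-/-. Its average change was -1.30 ± 0.28 (edgeR FDR = 0.0114). With the length slope as a covariate it was -0.93 ± 0.21 (FDR = 0.00737), and with the slope and the replicate block together it did not pass (-0.54 ± 0.23, FDR = 0.245). Cd163 is itself a marker of border-associated macrophages, the list that fell with the transgenes as described above. Hp, for haptoglobin, changed by -0.72 ± 0.24 (FDR = 0.0891), a call lost with the length slope as a covariate (-0.60, FDR = 0.109, and -0.73, FDR = 0.243, with the replicate block as well) and without any 1 of 11 libraries (replicates 2, 3 or 4 of WT, 1, 2 or 3 of Card9-/-, 2, 3 or 4 of 5xFAD, and 3 or 4 of Card9-/-5xFAD; -0.48 at the smallest, without 5xFAD replicate 4). Neutrophils also express Hp and Lcn2. In the average the 6 neutrophil markers had a median of -0.45 with 1 called, and the 4 tested monocyte markers had -0.57 with 1 called. Summed neutrophil markers were at 994 to 3584 CPM in WT, 886 to 6259 in Card9-/-, 739 to 2092 in 5xFAD and 485 to 5956 CPM in Card9-/-5xFAD. Summed monocyte markers were at 133 to 385, 133 to 255, 91.7 to 222 and 67.8 to 211 CPM in the same order. None of the markers was at 0 in any genotype, and the part of these cells in the changes of Hp and Lcn2 was not tested.

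Of 6 tested genes for iron chaperones, sensing and hepcidin 0 passed in either direction in the average, against 11.3% of all genes, 1 had an unadjusted p under 0.05, against 3315 of 14513, and the median was 0.02, against -0.15. In the fit with the replicate block 2 were higher and 1 lower, against 41.9% of all genes called. The lowest p-values were those of Nfe2l2, a regulator of the oxidative stress response that also acts on ferritin genes (0.42 ± 0.20, edgeR FDR = 0.217, and 0.55 with an FDR of 0.0618 without Card9-/- replicate 4), and Fbxl5, which targets Ireb2 for degradation (-0.49 ± 0.31, FDR = 0.368, and 0.02 with the length slope as a covariate). Both passed with the replicate block (0.43 ± 0.12, FDR = 0.0188, and -0.50 ± 0.18, FDR = 0.0531), and with the block and the slope together they were 0.28 and 0.24. Hamp, for hepcidin, the hormone that removes ferroportin from the membrane, had at most 2 counts in any library and was not tested.

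The list of mitochondrial iron, heme and iron-sulfur genes was the longest, with 16 tested. In the average 3 of these were higher and 1 lower, against 11.3% of all genes called. Their median was 0.21, against -0.15 over all genes. The counts under the replicate block were 6 higher and 2 lower of 16, where 41.9% of all genes passed. Slc25a37, or mitoferrin, which imports iron into mitochondria, was at 31.4 to 71.6 CPM in WT and 17.7 to 22.2 CPM in 5xFAD. It was at 48.4 to 74.7 CPM in Card9-/- and 23.1 to 40.8 CPM in Card9-/-5xFAD, so that groups did not overlap in either background. Of all genes, 8.04% were free of overlap in 5xFAD against WT and 7.01% in Card9-/-5xFAD against Card9-/-. Its average change was -1.07 ± 0.20 (edgeR FDR = 0.00347). In 5xFAD against WT 1 of the 43 genes was called, against 2.09% of all genes. That gene was Slc25a37 (-1.25 ± 0.28, edgeR FDR = 0.0336). Its call was lost without WT replicate 4 (-0.96, FDR = 0.15), 5xFAD replicate 2 (FDR = 0.128) or 5xFAD replicate 3 (FDR = 0.123). The same held with no filter on low counts (-1.20, FDR = 0.169) and with the replicate block and the length slope together (-1.03, FDR = 0.119). Genes of iron-sulfur cluster transfer were among those that rose. Hscb, a co-chaperone of this step, had 1.11 ± 0.34 (edgeR FDR = 0.0645), and it did not pass without any 1 of 9 libraries (replicates 2, 3 or 4 of WT, 1 or 2 of Card9-/-, 1, 2 or 3 of 5xFAD, and 3 of Card9-/-5xFAD), with FDRs up to 0.135. Bola3, which passes clusters on to target proteins, had 0.93 ± 0.23 (FDR = 0.0253) and lost its call with the replicate block and the length slope together (0.57 ± 0.21, FDR = 0.181). In Card9-/-5xFAD against Card9-/- 0 of the 43 genes passed in edgeR, with 8 at an unadjusted p under 0.05, against 1.97% and 1772 of 14513 among all genes.

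The genes most like each of the 10 over the 16 libraries were taken by Pearson r of log2 CPM among all other genes tested. Those of Fth1 were Siva1 (0.98), Tspo (0.97) and Atp6v0e (0.97), and those of Ftl1 were Ppia (0.96), Tmem223 (0.94) and Mpc1 (0.94). Slc40a1 was most like E4f1 (0.99), Trim26 (0.98) and Pdlim5 (0.97), and Ncoa4 most like Tmem43 (0.99) and Pla2g15 (0.98). For Slc11a1 they were Glb1 (0.98), Rtcb (0.97) and Tpm4 (0.96), for Slc11a2 Rtn3, Gga2 and Gnai3 (0.97 each), and for Aco1 Wwp2, C5ar2 and Adam10 (0.97 each). The highest values were lower for Tfrc, with Steap3 (0.87), Hmgcs1 (0.85) and Washc2 (0.83), for Ireb2, with Dicer1 (0.89), Nek9 (0.89) and Trip12 (0.88), and for Hmox1, with Pa2g4 (0.89), Gm5869 (0.87) and Laptm5 (0.87). All these values come from the same libraries, with their shared length slope.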

How the data were processed

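RNA of sorted CD11b+ brain cells was sequenced in 16 mouse libraries, 4 per genotype, grouped by the labels. Per the paper and the submitters' processing notes, the authors aligned reads to mm10 with HISAT2, filtered them with Samtools and counted them on genes with HTSeq, and they deposited raw counts per gene as whole numbers. Versions and the strand setting are not given in the sources used here, nor is how reads matching several genes were treated. Such reads bear on Ftl1 and Ncoa4, which have near-identical copies.

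Counts were tested in R 4.3.3 with the quasi-likelihood test of edgeR 4.0.16, with the 4 genotypes of all 16 libraries fitted together. Library sizes were scaled by TMM, and filterByExpr (minimum count 10) left 14513 genes, over which FDRs were computed after Benjamini and Hochberg (threshold 0.1). The SE was taken from the fold change and its F statistic. Log2 CPM used a prior count of 2. The length slope was fitted per library over 13801 genes with a summed exon length. Correlations are descriptions.

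The 10 genes, the further lists and the tests were chosen with earlier results of these data known. Named in the text are all 10 genes, further iron genes past the threshold in a pairwise comparison or in the average transgene effect, the 2 of lowest p in a list without any, and the 3 genes most like each of the 10. Some genes that meet this rule are not reported here. The paper's stained ferritin heavy chain is one reason for the choice of genes. Hamp, Trf and ratios were named after their values were seen.

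Alternatives were DESeq2 1.42.0, its size factors, other filters, only the 2 groups compared, FDR 0.05, a block for the replicate number, 1 surrogate variable (sva 3.50.0), the length slope as a covariate, and leaving out each library. Adding the counts of genes of at least 90% identity over 300 bases (BLAST+ 2.17.0), and leaving out the library of flattest slope per genotype, were chosen after the data were seen, as were a block for the replicate number within each Card9 genotype (8 blocks) and this block with the length slope. The edgeR steps were tested on simulated data. No pair of replicates was a copy (24 pairs, with a chi-square of at least 6.97 per degree of freedom). The labels do not say what a replicate number marks. By the deviations from group means, same-numbered libraries had an r over 0.1 in 8 of 8 pairs of the transgene comparisons (0.13 to 0.73). Across Card9 genotypes 4 of 8 pairs did (-0.64 to 0.49). No such count was made for libraries of different numbers, so these values do not show that libraries were paired.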

Additional observations from a re-analysis of the deposited data

Results flagged for a closer look

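In 2 of the 40 sets of 4 libraries (10 genes in 4 genotypes), 1 library stood apart by Dixon's criterion, which chance meets in about 1 of 20 sets. Aco1 was at 43.3 CPM in 5xFAD replicate 4 and at 15.8 to 18.6 CPM in the other 3 libraries, a gap of 0.898 of the range. This library had the steepest length slope of its genotype (0.544). Ncoa4 was at 24.9 CPM in Card9-/- replicate 4 and at 137 to 153 CPM in the others, a gap of 0.879 of the range, and this library had the flattest slope of its genotype (0.321). The part of the slope in these 2 gaps was not tested.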

How the results depend on the processing

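Of 10 genes, the number called in 5xFAD against WT was 0, and it was 1 with DESeq2 on all libraries, 2 with DESeq2 on only the 2 groups, 3 with 1 surrogate variable, 2 with the length slope as a covariate, and 0 to 1 when a library was left out (1 without WT replicate 1). In Card9-/-5xFAD against Card9-/- it was 1, and 0 at an FDR of 0.05, 0 without a filter on low counts, 0 with edgeR on only the 2 groups, 2 with DESeq2 on all libraries, 3 with 1 surrogate variable, 2 with the length slope, 2 without the flattest library of each genotype, and 0 to 1 when a library was left out. In the average effect it was 3, and 2 at an FDR of 0.05 and without a filter, 4 with DESeq2 on all libraries, 5 with 1 surrogate variable or with the length slope, and 2 to 4 when a library was left out. The surrogate variable correlated with the length slope (absolute r 0.83, 16 libraries). The share of all genes called is not given here for DESeq2, the surrogate variable, other filters or fits with libraries left out. Counts from those fits are therefore not read as results about the 10 genes. The Card9 comparisons and the interaction gave 0 under every alternative run. With the replicate number as 1 block across all libraries, the counts were 0 in 5xFAD against WT, 1 in Card9-/-5xFAD against Card9-/-, 3 in the average effect and 0 in the other 3 comparisons. With the replicate block within each Card9 genotype they were 3, 3 and 6 in the transgene comparisons and their average, and with that block and the length slope together 0, 0 and 1, and the interaction gave 0 in both. Only 5 of 16 libraries correlated best with a library of their own number.

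Of 2029 values of single genes under 30 alternatives, 1804 kept their direction and side of the threshold, 36 passed it, 65 no longer passed and 124 changed sign. Many of these values could hardly change. An FDR of 0.05 reuses the main fit, and leaving out a library outside a comparison often left its fold change as it was. The tally therefore does not measure how robust the results are. Among the 3 genes called in the average effect, none changed sign in a transgene comparison. Sign changes with the length slope were: Ncoa4 0.21 in 5xFAD against WT, 0.17 in Card9-/-5xFAD against Card9-/-, 0.19 in the average, -0.64 in Card9-/- against WT, -0.69 in Card9-/-5xFAD against 5xFAD and -0.05 in the interaction. In the same order without the interaction, Slc11a2 had 0.37, 0.52, 0.44, a kept sign and -0.47. Hmox1 (-0.05) and Tfrc (-0.08) changed in Card9-/-5xFAD against 5xFAD, Slc11a1 (-0.16) and Slc40a1 (-0.07) in Card9-/- against WT, Ireb2 (-0.01) in Card9-/-5xFAD against Card9-/-, and Fbxl5 (0.02) in the average. With the block within each Card9 genotype, Ireb2 was -0.01 in Card9-/-5xFAD against Card9-/- and Ncoa4 -0.06 in the interaction. With that block and the length slope, the values in 5xFAD against WT, in the same contrast of the Card9-/- background and in the average were 0.24, 0.29 and 0.26 for Aco1, 0.26, 0.23 and 0.25 for Ncoa4, and 0.53, 0.70 and 0.62 for Slc11a2. Hmox1 was -0.05 in the first and Tfrc 0.18 in the second, Ncoa4 was -0.03 in the interaction, and in the average Fbxl5 was 0.24, Lcn2 0.08 and Steap4 1.00. With 1 surrogate variable, Ireb2 (-0.06) and Slc11a2 (0.39) changed in Card9-/-5xFAD against Card9-/-, Ncoa4 (-0.06) in Card9-/- against WT, and Slc11a2 in 5xFAD against WT (0.07) and in the average (0.23). With at least 10 counts in every library, Ireb2 (-0.02) and Slc11a1 (-0.04) changed in Card9-/- against WT, Slc11a2 (-0.07) and Tfrc (-0.03) in Card9-/-5xFAD against 5xFAD, and Slc11a2 in Card9-/-5xFAD against Card9-/- (0.07) and in the average (0.00). Slc11a2 was also 0.04 in Card9-/-5xFAD against Card9-/- with DESeq2 on all libraries, on only the 2 groups and by its size factors, -0.01 with DESeq2 on the 2 groups and -0.02 with the replicate block in Card9-/-5xFAD against 5xFAD, and 0.01 in Card9-/- against WT without the flattest libraries. In the interaction, Aco1 was -0.01 without a filter and Ftl1 -0.15 without the flattest libraries.

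Leaving out 1 library gave these ranges where a sign changed. In 5xFAD against WT, Slc11a2 ran from -0.37 to 0.01. In Card9-/-5xFAD against Card9-/-, Ireb2 ran from -0.09 to 0.18 and Slc11a2 from -0.30 to 0.21. In the average, Ireb2 ran from -0.24 to 0.02, Slc11a2 from -0.23 to 0.04 and Tfrc from -0.07 to 0.19. In Card9-/- against WT, the ranges were -0.31 to 0.16 for Hmox1, -0.07 to 0.22 for Ireb2, -0.22 to 0.45 for Ncoa4, -0.12 to 0.24 for Slc11a1 and -0.26 to 0.19 for Slc11a2. In Card9-/-5xFAD against 5xFAD, they were -0.22 to 0.58 for Ncoa4, -0.27 to 0.18 for Slc11a1, -0.22 to 0.28 for Slc11a2 and -0.15 to 0.27 for Tfrc. In the interaction, they were -0.13 to 0.42 for Aco1, -0.34 to 0.58 for Ncoa4, -0.35 to 0.10 for Slc11a1, -0.15 to 0.46 for Slc11a2 and -0.19 to 0.51 for Slc40a1. The cause of these changes was not tested.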
